A study of Drosophila melanogaster with 2 samples.

Results

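The 10 proneural and sensory organ genes ac, sc, l(1)sc, ase, ato, amos, da, emc, sens and cpo were taken by name from the 13945 protein-coding genes annotated on the 6 chromosome arms. All 10 matched a gene symbol. For each gene, peak summits were collected in its gene window, which is the gene with the 2000 bp before its start, and in the flanking sequence out to the next protein-coding gene that does not overlap it. The peaks come from chromatin immunoprecipitation followed by sequencing (ChIP-seq) of whole Drosophila melanogaster prepupae, 1 day old, of the strain Gug-GFP, with an antibody to GFP. The labels describe an insertion targeting Gug that gives a Gug-eGFP fusion. They give 2 biological replicates of this 1 group, and neither the sex of the animals nor the number pooled. The protein encoded by Gug, known as Grunge or Atrophin, is a transcriptional corepressor that reaches DNA through other proteins. No untreated or mock group was analysed here, so the values below are compared with the rest of the genome and between the replicates.

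Proneural genes encode basic helix-loop-helix transcription factors that give ectodermal cells the capacity to become sensory organ precursors or neuroblasts. The factors bind E-box sequences as heterodimers with Daughterless, the product of da. Extramacrochaetae, the product of emc, has a helix-loop-helix domain without a DNA-binding basic region and holds these factors in inactive dimers. The zinc finger protein Senseless, the product of sens, acts with the proneural factors in the precursor, and cpo (couch potato) encodes an RNA-binding protein named for the behaviour of its mutants and found in sensory precursors and neurons. Whole prepupae hold many cell types, and the lists do not tell which cells carried a peak.

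Peaks were most numerous around emc, the inhibitor of the proneural factors, and at cpo, while the other 8 genes had almost none. In the single thresholded list made from both replicates together, the emc locus held 30 summits, cpo held 10, and the other 8 genes together held 1. The thresholded list keeps peaks with an irreproducible discovery rate (IDR, low where a peak ranks high in each of the repeated calls) of 0.01 or less. In the gene window, 2 of the 10 genes had a summit, emc and cpo. Over all protein-coding genes the share was 25.7%, so the count of genes alone is close to the background. The count was also 2 in the list of replicate 1 alone, in that of replicate 2 alone and in the conservative set, a second list from both replicates, where the shares of all protein-coding genes were 20.3%, 21.1% and 25.5%. With the flanks included, 3 of 10 had a summit in the main list, against 37.9% of all protein-coding genes. What differed among the genes was the number of peaks. In 155.6 kb of distinct sequence at the 8 genes other than emc and cpo, the density was 0.00643 summits per kb, against 0.0429 over all arms. At emc it was 0.328 per kb and at cpo 0.0973 per kb, which is 7.63 and 2.26 times the density of all arms. Of the 30 summits at emc, 28 lay in its long flanks, a sequence shared with hng3. Of 76 other genes of 80 to 120 kb, 15 (19.7%) had as many summits in the gene window as cpo. Of windows as wide as the region that holds ac, sc, l(1)sc and ase, 31.6% held 1 summit or none.

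**Figure D1:**
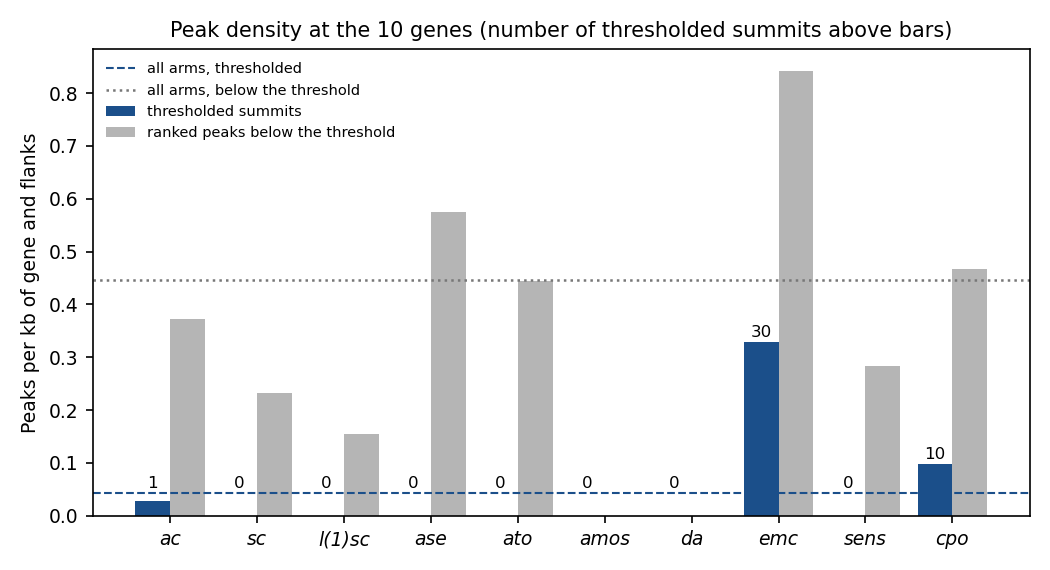
Thresholded summits (blue bars) and ranked peaks below the threshold (grey bars) per kb of gene and flanking sequence, with the level over all arms as dashed and dotted lines. The numbers above the bars are counts of thresholded summits: 30 at emc, 10 at cpo, 1 at ac and 0 at the other 7 genes.

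The thresholded list of the larger set held 5753 peaks, 5750 of them on the arms used here, and replicates 1 and 2 alone gave 3827 and 4000. The number of reads behind each list is unknown. The deposited signal of a peak is the authors' own value with no unit, and signals from different lists are not on a common scale. Of the 41 distinct summits at the 10 genes, 24 (58.5%) had a summit within 100 bp in the thresholded list of each replicate, against 50.2% of all 5750 summits. A further 6 were in the list of replicate 1 alone, 6 in that of replicate 2 alone and 5 in neither, a class that held 22.7% of all summits. In the longer ranked lists, 38 of the 41 had a peak in both replicates. Over these 38, Spearman's rho of the signals in the replicates was 0.671, against 0.793 over the 5075 summits of the whole list with both values. All of these summits were selected for reproducible rank in the same libraries, so rho only describes them.

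**Figure D2:**
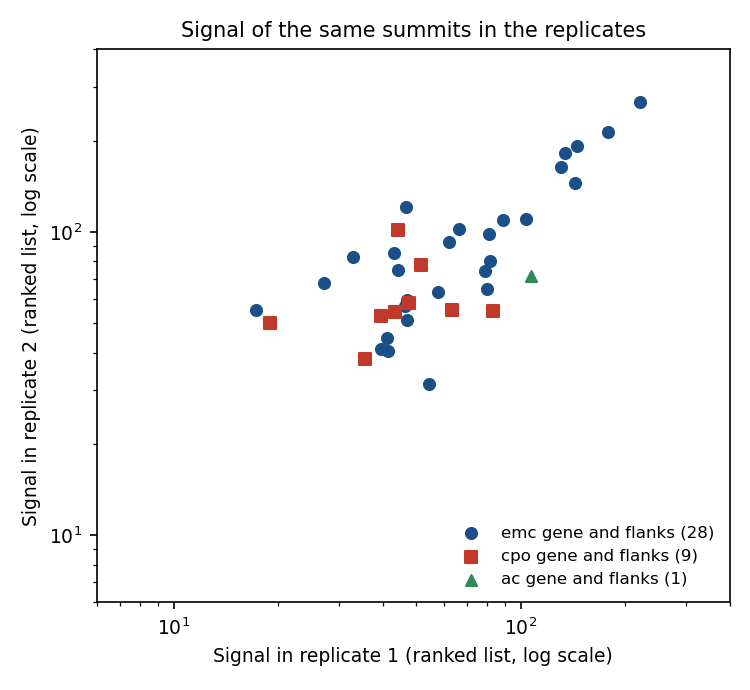
Signal of the same summits in the ranked list of replicate 1 (x axis) and replicate 2 (y axis), both on log scales without a unit. Each point is 1 summit at emc (28), cpo (9) or ac (1). The strongest emc summits are strong in both replicates, and the cpo summits reach 83.3 in replicate 1 and 101 in replicate 2.

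The gene emc (FBgn0000575, arm 3L, 749400 to 753492, plus strand) is 4093 bp long and has 1 annotated transcript start. It lies inside an intron of hng3, a gene on the opposite strand (737680 to 755489), and the sequence on either side holds no other protein-coding gene for 37549 bp towards CG13896 and 49934 bp towards CG13898. The 30 summits were spread over this whole stretch of 91.6 kb. Upstream of the emc start there were 11, within the gene 1 and past its end 18. The median gap between neighbours was 2597 bp and the widest 9248 bp. By position, 25 were intergenic, 2 intronic and 3 within 500 bp of a transcript start, and 26 lay outside any annotated gene. Over the whole list 16.0% of summits were intergenic and 35.8% were within 500 bp of a transcript start. The flanks were drawn to run between protein-coding genes, so a high intergenic share at emc follows in part from how the locus was defined. The lists give no assignment of a peak to a target gene, and emc, hng3, CG13896 and CG13898 all border or overlap this sequence.

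The strongest summit of the locus, at 738882, reached a signal of 484, with 220.1 in replicate 1 and 268 in replicate 2. It lay 10518 bp upstream of the emc start, inside hng3 and 467 bp from an hng3 transcript start. At 762525, 13125 bp downstream of the emc start, the signal was 391, with 178 and 213 in the replicates. Both summits are in the upper part of the thresholded list, where 95.9% and 93.6% of summits had lower signals. Upstream at 724722 the signal was 320 (145 and 192 in the replicates). At 781347 it was 318 (134 and 182). The summit at 802894, near the far end and 1157 bp from the start of CG13898, had 300.3 (130.4 and 164). These 5 were the only summits of the locus above a signal of 300, and each was in the thresholded list of both replicates. They lie on both sides of emc, between 24.7 kb upstream and 53.5 kb downstream of its start.

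Within the window of the gene itself there were 2 summits. The intronic one at 751954, 2554 bp downstream of the start, reached a signal of 217, with 103 in replicate 1 and 111 in replicate 2. The promoter summit at 749357, 43 bp upstream of the start, was weaker, with a signal of 96.4. It had 27.1 in replicate 1 and 68.0 in replicate 2, and only replicate 2 had it in its thresholded list. The conservative set had no summit within 100 bp of it. Its signal was below the median of the locus.

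The other 23 summits had signals from 40.8 to 286. Over all 30 the median was 135, and 17 were above the median of 112 of the whole list. Of the 30, 21 were in the thresholded lists of both replicates and 2 in neither, at 772364 and 793867. Spearman's rho between the replicates was 0.755 over the 28 with both values. The weakest, at 734191, lies 221 bp from a stronger summit at 733970. Replicate 1 alone gave 26 summits in the locus, replicate 2 alone 27 and the conservative set 32. Among the 1000 summits of highest signal, out of 5750 on the arms, 6 were in the locus.

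**Figure D3:**
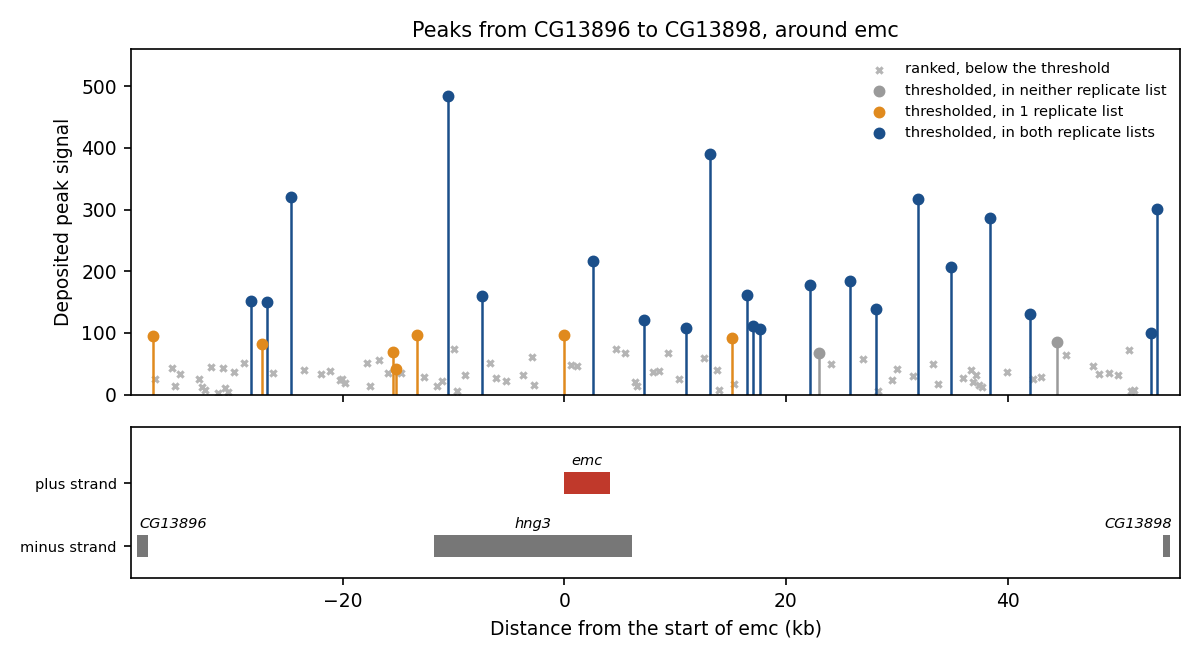
Deposited signal of each peak (y axis, no unit) by its distance in kb from the emc start (x axis), from CG13896 to CG13898. Filled points are thresholded summits coloured by presence in the replicate lists, crosses are ranked peaks below the threshold, and the lower panel shows the coding genes by strand. The 30 thresholded summits are spread over the 91.6 kb on both sides of emc, and all 5 above a signal of 300 are in both replicate lists.

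The number of summits around emc was among the highest in the genome. No protein-coding gene had more in the gene and its flanks, and 4 of 13945 (0.0287%) had 30, namely emc, hng3, which shares the same sequence, and CG34300 and heca, with 131.5 kb each. In 13336 windows of 91.6 kb, placed every 10 kb along the arms, the median was 3 summits, and 1 window (0.0075%) held 30. That window, from 720001 to 811576 on arm 3L, overlaps the emc locus and runs past CG13898. The bordering gene CG13898 had 25 summits in 71.2 kb of gene and flanks, a sequence partly shared with emc. This is more than the 18 past the emc end, so the run of summits continues beyond the locus. The rank rests on the long flanks. In the gene window alone emc had 2 summits, and 601 protein-coding genes had more. With flanks that end at the next gene of any kind emc had 9 summits, and 76 protein-coding genes had more, and with flanks of at most 10000 bp it had 6, and 143 had more. Ranked peaks below the threshold were dense there too, at 0.841 per kb against 0.446 over all arms, and the strongest of these 77 had a signal of 73.7.

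The sequences around summits are given from the dm6 assembly, 100 bases on either side and on the plus strand. The windows are those of the 3 strongest peaks of emc, all in its flanks, and of both peaks in its gene window, whose signals are described above. Capitals mark CAGTG or its reverse complement CACTG, a motif looked for after the sequences had been seen.
Strongest peak of the emc locus, in hng3, chr3L:738782-738981: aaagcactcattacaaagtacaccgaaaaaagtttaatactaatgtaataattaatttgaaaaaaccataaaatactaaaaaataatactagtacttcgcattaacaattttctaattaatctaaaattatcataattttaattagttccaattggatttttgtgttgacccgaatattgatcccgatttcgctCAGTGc
Downstream peak, chr3L:762425-762624: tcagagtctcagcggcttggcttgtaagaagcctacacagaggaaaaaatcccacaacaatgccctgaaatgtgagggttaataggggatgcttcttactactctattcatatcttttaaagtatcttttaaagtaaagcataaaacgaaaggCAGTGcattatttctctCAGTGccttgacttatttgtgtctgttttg
Upstream peak, chr3L:724622-724821: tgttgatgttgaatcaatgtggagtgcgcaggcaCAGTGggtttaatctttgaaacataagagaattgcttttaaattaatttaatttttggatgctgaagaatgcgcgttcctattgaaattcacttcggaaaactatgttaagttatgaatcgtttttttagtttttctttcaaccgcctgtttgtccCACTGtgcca
Peak in the emc intron, chr3L:751854-752053: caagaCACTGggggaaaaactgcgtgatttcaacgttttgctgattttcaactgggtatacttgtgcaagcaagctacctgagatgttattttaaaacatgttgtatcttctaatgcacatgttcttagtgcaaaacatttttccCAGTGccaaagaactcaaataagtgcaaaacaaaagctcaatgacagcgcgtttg
Peak at the emc start, upstream part only, chr3L:749257-749399: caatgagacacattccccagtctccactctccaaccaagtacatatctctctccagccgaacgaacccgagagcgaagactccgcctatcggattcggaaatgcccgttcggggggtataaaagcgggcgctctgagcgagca
The window at 762525 had 2 copies of the motif, 1 of them as the longer TCTCAGTG, and no E-box. The windows at 724722 and 751954 also had 2 copies, and the window at 738882 had 1. At the emc start there was none in the 143 bases printed, which end at the base before the transcript. The GC content was 55.9% at the emc start and 25.5% at 738882.

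The gene cpo (FBgn0263995, arm 3R, 17919832 to 18018892, plus strand) is 99061 bp long with 3 annotated transcript starts, and its neighbours Rim and DNaseII lie close on either side. It held 9 summits in the gene window, 8 of them inside the gene, all in introns, a class that held 45.7% of the whole list. The part of cpo that is intron was not measured, so the 45.7% is not a background for summits inside this gene. A group of 7 intronic summits covered 16.7 kb around the most downstream transcript start, and the next summit inside the gene followed 46.9 kb further on, at 18004902. Among all protein-coding genes 57 (0.409%) had 9 or more summits. Of 76 other genes of 80 to 120 kb, 15 (19.7%) did, with a median of 3 and a range of 0 to 22. The count at cpo was in the upper part of the range for genes of its length, and not outside it.

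Signals at cpo were moderate. The highest inside the gene was 148 at 17941262, with 44.4 in replicate 1 and 101 in replicate 2, and the next was 129 at 17949573, with 51.7 and 77.6. The summit at 17919232, 600 bp upstream of the first transcript start, had 115, with 63.2 and 55.4. The summit at 17946343 had 104, with 47.5 and 58.3 in the replicates. Of these 4 summits, those at 17949573 and 17946343 were in the thresholded list of both replicates, that at 17941262 in that of replicate 2, and that upstream of the gene in neither. A summit of signal 8.13 at 17946543, beside the one at 17946343, had no peak of its own within 100 bp in either ranked list. In the flank, a summit at 18019231 had the highest signal of the locus, 160.4 (83.3 and 54.9), and lay 144 bp from the start of DNaseII, an acid nuclease gene. Only replicate 1 had it in its thresholded list.

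Few of the cpo summits were called in both replicates alone. Of the 10 summits, 2 were in the thresholded lists of both replicates and 3 in neither, and 4 had a signal above the median of the whole list. Replicate 1 alone gave 4 summits at cpo and replicate 2 alone 5, so the count differed from that of the main list by more than 1.5 times in each. None of the 10 was among the 1000 summits of highest signal, out of 5750 on the arms.

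**Figure D4:**
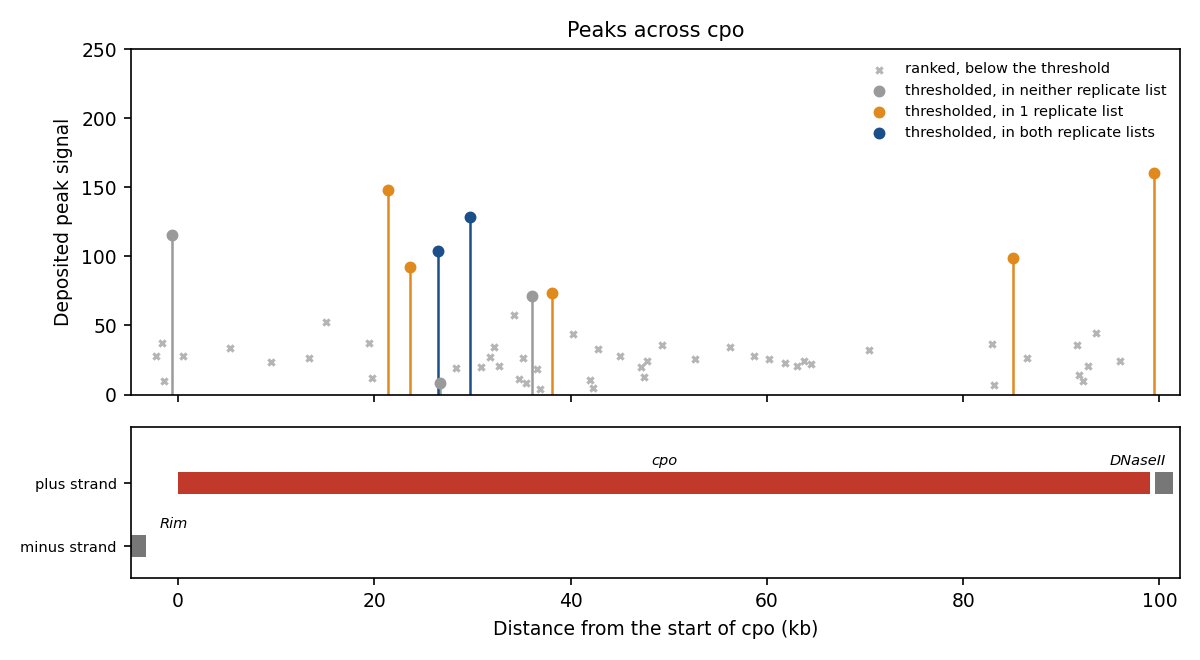
Deposited signal of each peak (y axis, no unit) by its distance in kb from the start of cpo (x axis), with symbols and lower panel as for the emc locus. The 7 intronic summits between about 20 and 40 kb form 1 group, and 2 of the 10 summits are in both replicate lists.

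The windows of the flank summit at 18019231 and of the second strongest peak inside cpo, at 17949573, held no CAGTG. The window of the strongest peak inside cpo had 2 copies of CAGTG, 1 of them within TCTCAGTG, and 1 E-box of the form CAGGTG.
Intronic peak of cpo, chr3R:17941162-17941361: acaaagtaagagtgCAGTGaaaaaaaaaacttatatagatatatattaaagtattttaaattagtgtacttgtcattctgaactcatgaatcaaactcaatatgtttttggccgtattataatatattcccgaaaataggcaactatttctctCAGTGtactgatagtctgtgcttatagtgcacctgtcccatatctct

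The genes of the achaete-scute complex lie in a row on the X chromosome, on the plus strand. They are ac (FBgn0000022, 370031 to 370947), sc (FBgn0004170, 396060 to 397497) and l(1)sc (FBgn0002561, 409721 to 410817), which promote the formation of external sensory organs and neuroblasts, and ase (FBgn0000137, 460747 to 463176), expressed in neural precursors. An intron of CG32816, on the minus strand, spans the whole row in this annotation. From y to Cyp4g1, in 105.8 kb, there was 1 thresholded summit. It lay at 361624, between y and ac, 8407 bp upstream of the ac start and 775 bp from a start of the long noncoding RNA yar. Its signal was 176, with 107 in replicate 1 and 71.3 in replicate 2, and it was in the thresholded list of both. None of the 4 gene windows held a thresholded summit. A low count is common for such a stretch: of 13328 windows of this width along the arms, 31.6% held 1 summit or none, and the median was 4.
Peak between y and ac, chrX:361524-361723: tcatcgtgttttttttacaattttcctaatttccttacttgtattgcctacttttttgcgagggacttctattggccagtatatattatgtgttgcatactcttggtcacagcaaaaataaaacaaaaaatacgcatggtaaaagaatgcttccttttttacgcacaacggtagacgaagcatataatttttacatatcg
This window is printed since it is the only thresholded peak beside any of the proneural genes, and it held neither CAGTG nor an E-box.

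Below the threshold, the region from y to Cyp4g1 had 36 ranked peaks, 0.34 per kb against 0.446 over all arms. The strongest, at 386281 between ac and sc, reached 73.0, with 29.2 in replicate 1 and 41.1 in replicate 2. Its IDR of 0.0111 was just outside the threshold of 0.01 in the larger set, and it was in the conservative set, where the counts became 2 at ac and 1 at sc. It lay 9779 bp upstream of sc and 723 bp from a start of the noncoding RNA CR44752. The strongest ranked peak near ase had a signal of 55.6 (IDR 0.108), 16589 bp upstream of its start. In the flanks of l(1)sc the strongest had 46.7 (IDR 0.394), 12266 bp downstream of the l(1)sc start. At the ac gene itself there was a ranked peak of signal 33.1 with an IDR of 0.409, and the strongest in ase had 26.7 with an IDR of 0.819. None of these was in the thresholded list of a replicate.

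**Figure D5:**
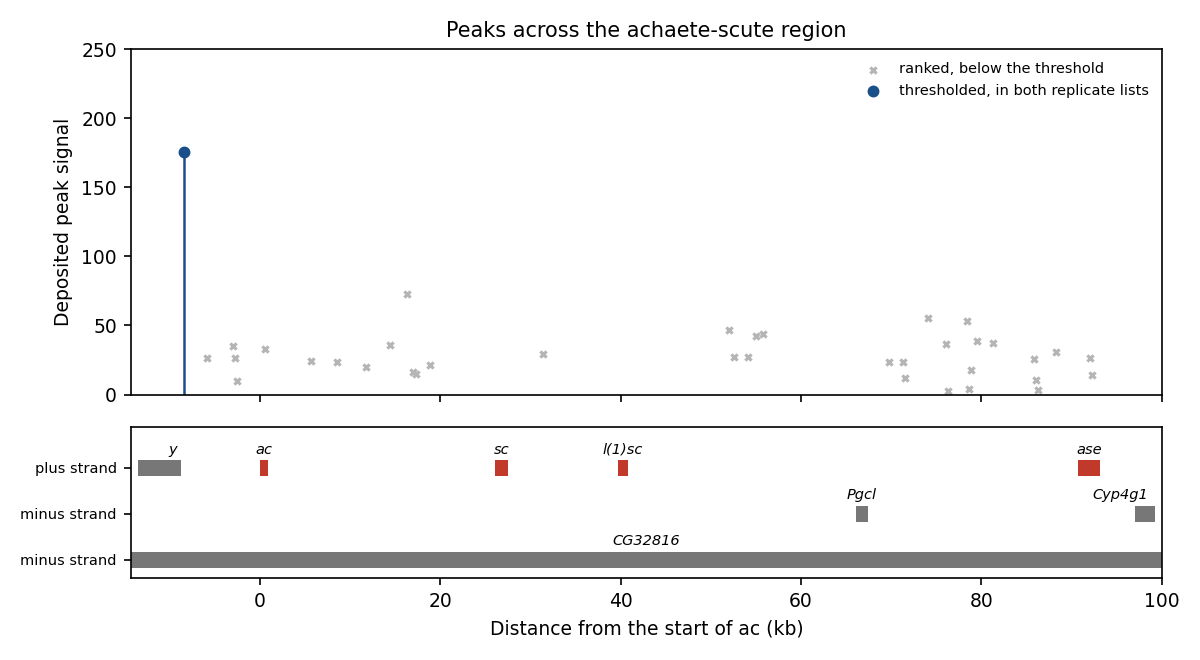
Deposited signal of each peak (y axis, no unit) by its distance in kb from the start of ac (x axis), from y to Cyp4g1, with symbols as for the emc locus and the 4 genes of the complex in red. The 1 thresholded summit, at a signal of 176, lies left of ac, and all crosses are below 75.

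The remaining proneural genes had no thresholded summit in the gene or its flanks. For ato (FBgn0010433, arm 3R, 8278052 to 8279274), which specifies chordotonal organs and photoreceptors, 18.0 kb were examined. The strongest ranked peak there lay at the promoter, 67 bp upstream of the start, with a signal of 47.5 and an IDR of 0.0407, and a peak of replicate 2 (24.0) lay within 100 bp. A weaker ranked peak of the pair at this promoter lay 146 bp past the start, with a signal of 9.94 and the same IDR of 0.0407, and a peak of replicate 1 (25.6) lay within 100 bp of it. For amos (FBgn0003270, arm 2L, 18596136 to 18596921), which specifies olfactory sensilla, 4.3 kb between close neighbours held no ranked peak at all. The same was true of the 7.7 kb examined for da (FBgn0267821, arm 2L, 10388105 to 10393228), the partner of all the proneural factors. At the genome-wide density of 0.446 ranked peaks per kb, stretches this short can hold few. For sens (FBgn0002573, arm 3L, 13396228 to 13401125), 21.1 kb held 6 ranked peaks, the strongest with a signal of 59.0 at 2570 bp upstream of the start, with an IDR of 0.431 and 26.7 and 26.6 in the replicates. Over the 8 genes other than emc and cpo, 50 ranked peaks failed the threshold. The highest signal among them was 73.0, none was in the thresholded list of a replicate, and their density of 0.321 per kb was below that of all arms.

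Most of these genes are short, and the share of genes with a summit in the gene window rose with gene length over the whole annotation. It was 14.1% for genes under 2 kb, 25.4% for genes of 2 to 5 kb, 42.1% for genes of 5 to 20 kb and 61.5% for longer genes. The genes ac, sc, l(1)sc, ato and amos are under 2 kb, and ase, emc and sens are between 2 and 5 kb. At 5124 bp, da falls in the class of 5 to 20 kb and had no summit, and cpo is in the longest class.

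E-boxes, the sites of proneural factors, were counted at these summits and at all summits. In windows of 200 bp on both strands, CANNTG was present at 25 of 41 summits (61.0%) and at 59.5% of all 5750. CAGCTG, a form of the same box, was present at 2 of 41 (4.88%) against 7.3%. Another form, CAGGTG, was present at 6 of 41 (14.6%) against 4.57%, and 4 of these 6 were at cpo. The Senseless site AAATCA was present at 15 (36.6%) against 24.6%, and 13 of the 15 were at emc. The GAGA factor motif GAGAG was present at 8 (19.5%) against 24.2%. For Su(H), a factor of the Notch pathway, GTGGGAA was at 0 of 41 against 2.1% of all summits and GTGAGAA at 1 of 41 (2.44%) against 2.89%. For the Hairy and Enhancer of split repressors, CACGCG was at 0 of 41 against 3.44% and CACGTG, also an E-box, at 3 of 41 (7.32%) against 1.9%. In windows of 400 bp, GTGGGAA was at 2 of the 41 (4.88%) against 4.92% of all summits, and CACGCG at 5 (12.2%) against 8.97%. These counts are small, the summits share their loci, and no test was made. The median GC content of the windows was 37.5% for the 41 summits and 35.0% for all.

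Genes that act before, beside or after the proneural factors gave a mixed picture. Of 80 such genes in 4 lists, each counted once, 28 (35.0%) had a summit in the gene window, against 25.7% of all protein-coding genes. Within 1000 bp of a transcript start it was 14 of 80 (17.5%), below the 18.9% of all protein-coding genes. The 4 lists were not matched for gene length. Over all protein-coding genes the share in the gene window rose from 14.1% under 2 kb to 61.5% at 20 kb and over. The shares given here therefore do not compare the 80 genes with others of their length. Among prepattern and upstream regulators, 9 of 16 (56.2%) had a summit in the gene window. The decapentaplegic ligand gene dpp had a summit of signal 576 (249 and 322 in the replicates), chn, which encodes a zinc finger activator of the achaete-scute complex, 562 (259 and 318), the LIM-only gene Bx 268 (112 and 160) and the Wnt ligand gene wg 220 (119 and 104). The GATA factor gene pnr, which activates ac and sc, had no summit, while ush, the gene of its cofactor, had 6, the strongest at a signal of 164. The 9 genes with a summit were 9.1 to 64.3 kb long.

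Among precursor and neuroblast genes, 12 of 25 (48.0%) had a summit. The strongest was in an intron of neur, the gene of a ubiquitin ligase that acts on the Notch ligand Delta, with a signal of 661 (255 and 402 in the replicates). At elav, a neuronal RNA-binding protein gene, it was 615 (318 and 295). At brat, a gene of neuroblast differentiation, it was 574 (244 and 329), and chn is in this list as well. The precursor genes phyl, sca, pros, mira, wor and nerfin-1 had none. Related basic helix-loop-helix genes had a summit at 4 of 17 (23.5%), with twi at 293, crp at 245, nau at 124 and dpn at 116. No summit was found at cato or tap. Genes of sense organ subtype and cilium function had a summit at 5 of 25 (20%), with nompA, a gene of the mechanosensory dendritic cap, at 174, ct at 173, gl at 134 and svp at 129.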

How the data were processed

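The data are peak lists on dm6 from 2 biological replicates of 1 group. Per the README files the authors deposited with the lists, each list was made from the alignments of the replicates and a control alignment, and the thresholded lists used a further region file. Which aligner and peak caller were used is not given in the sources used here. The signal deposited by the authors has no stated unit. The score deposited by the authors is a scaled IDR, capped at 1000, and the minus log10 of the global IDR is given in the ranked lists as a second score. The thresholded list of the larger set (5753 peaks) was the main one, and all its peaks were in 1 of the ranked lists at an IDR of 0.01 or less. The 4 signal columns of matched peaks in the ranked lists of both replicates were not used.

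Positions are 1-based. Genes came from Ensembl release 115 and sequence from the RefSeq copy of the same assembly, and no peak ended beyond the length of an arm. Promoter means at most 500 bp from a transcript start. A replicate has a summit when one lies within 100 bp. Genes, lists and motifs were chosen with earlier results of these data known. The genes named are all 10 members with the strongest summits of each, the genes bounding their flanks, and up to 4 of each further list by signal, and single genes without a summit were picked after their values were seen. The symbol h was read as hry and Bob as BobA. With 1 group no test between conditions exists, and none was made. Counting was tested on simulated data. Python 3.11.15, pandas 2.3.3 and scipy 1.17.1 were used.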

Additional observations from a re-analysis of the deposited data

How the results depend on the processing

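Of 59 recomputed main values, 42 stayed within 1.5 times the reported one. The count of genes with a summit in the gene window, 2, was 2 with every upstream distance and every list tried except the 1000 highest signals (0). With that list, 1 gene had a summit in gene or flank, 0 summits were in genes and 6 in flanks, 10 of the 80 further genes had a summit, and the share of all genes was 7.77%. The 11 summits in genes became 7 at an IDR of 0.001 or less and 3 within 1000 bp of a transcript start, where 14 of the 80 further genes had a summit (17.5%, against 18.9% of all genes, while their share was above that of all genes under the other settings). None of these shares was matched for gene length. From the gene start on, without upstream sequence, 12.4% of all genes had a summit. The 30 summits in flanks became 8 when flanks ended at a gene of any kind and 6 when limited to 10000 bp, since most lie beyond a noncoding gene or further away. Support by both replicates rose from 24 to 38 in the ranked lists. The 25 windows with an E-box became 14 at 100 bp (34.1%, the same share as over all summits) and 39 at 400 bp (95.1%, against 87.3%). When each replicate was left out in turn, summits in genes were 4 to 7, in flanks 26 to 27, genes with a summit 2 and 2, genes with one in gene or flank 3 and 3, further genes 22 to 24, and the share of all genes 20.3% to 21.1%. No paired analysis was possible because the study has a single group. Depth is unknown, so a missing peak means that none passed in these lists.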

Other observations

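The motif CAGTG, on either strand, was counted after the printed sequences had been seen. In 200 bp windows it was present at 28 of 41 summits of the proneural and sensory organ genes (68.3%) and at 49.8% of all 5750 summits. In windows 1000 bp to either side that lie clear of other summits, it was present in 29.9% of 10748 around all summits and in 30.3% of 76 around the 41. Of the 28, 22 were at emc and 6 at cpo. The longer TCTCAGTG was present at 6 of 41 (14.6%), 4 of them at cpo, at 4.64% of all summits and in 0.298% of the windows beside them. In 100 bp windows TCTCAGTG was at 1.2% of all summits and at 0 of the 41, so most copies lay more than 50 bp from the summit. The same values for CAGTG in 100 bp windows were 34.1% for the 41, 20.1% for all summits and 16.3% beside them. The summits of 1 locus are not independent, and no factor is assigned to these letters here.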
